A study of Homo sapiens with 21 samples.

Results

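Internal exonic H3K4me3 regions are stretches of the histone mark H3K4me3 (histone H3 trimethylated on lysine 4) that lie inside genes, over exons, and away from the outer start of every annotated gene. They were chosen by position and by call: a region had to be called in all 9 H3K4me3 libraries, to lie more than 1 kb from the outer 5′ end of every protein-coding and lncRNA gene, and to overlap at least 1 exon of such a gene. Of 13883 regions called in all 9 libraries, 1947 (14%) met this rule, out of 19279 regions in the series. The calls in all 9 libraries chose the members, so their presence in every medium is not a result. Widths and RNA were not used.

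The cells were of RS4;11, an established line from acute lymphoblastic leukaemia of B-cell precursors that carries a KMT2A-AFF1 fusion, kept for 24 h in 1 of 3 media. In -Asn+Fe the medium lacked asparagine and held 10 µM ferric nitrate with 0.75 µM hinokitiol, which is known to shuttle iron through membranes. In -Asn the medium lacked asparagine, and +Asn was the complete medium. Each medium had 3 H3K4me3 libraries and 3 RNA libraries from this 1 line, and the 3 inputs have no values here. Whether the libraries of a medium were separate cultures is not in the labels. The p-values therefore reflect the spread among these libraries alone, and that spread may be technical.

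H3K4me3 is deposited by the SET1 and KMT2 enzymes around the starts of genes that are transcribed or poised, and its breadth differs between genes. Many genes have more than 1 start: a promoter within the gene, upstream of a later first exon, gives a shorter or different transcript. A mark that lies over an inner exon can therefore belong to an annotated inner start, to an unannotated one, or to an overlapping gene.

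The mark at an inner start is best seen beside the sequence of that start. The 8 sequences below are RefSeq starts (build GRCh38.p14) of the host gene that fall inside an internal exonic region, each 300 bases long in the direction of the gene, 250 before the annotated start and 50 from it onward. SLC3A2, TRIB3, PHGDH, CREM, PCBP4 and GPR18 are shown because their regions widened without asparagine, SLC2A5 because its region narrowed, and S100A4 because its region narrowed in -Asn+Fe. Capitals mark matches on either strand to 5 motifs. The first is the TATA box, searched as TATAAA. The second is the motif bound by NF-Y, searched as CCAAT. The third is the GC box, searched as GGGCGG. The fourth is the cAMP response element, searched as TGACGTCA. The fifth is an amino acid response element, searched as TGATGCAA. Overlapping matches run together.
SLC3A2, chr11:62880646-62880945, plus strand: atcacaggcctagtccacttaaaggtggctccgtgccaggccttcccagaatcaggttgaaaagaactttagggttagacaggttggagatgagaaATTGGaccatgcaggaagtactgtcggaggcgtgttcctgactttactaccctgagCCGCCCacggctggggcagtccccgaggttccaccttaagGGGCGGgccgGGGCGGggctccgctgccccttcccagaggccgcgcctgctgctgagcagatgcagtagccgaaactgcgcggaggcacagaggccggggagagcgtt
TRIB3, chr20:381093-381392, plus strand: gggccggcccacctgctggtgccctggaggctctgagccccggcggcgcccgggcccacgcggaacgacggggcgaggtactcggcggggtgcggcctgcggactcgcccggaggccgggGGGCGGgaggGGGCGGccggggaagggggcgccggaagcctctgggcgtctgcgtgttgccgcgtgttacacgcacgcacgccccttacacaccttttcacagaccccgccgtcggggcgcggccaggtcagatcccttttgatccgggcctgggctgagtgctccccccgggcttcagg
PHGDH, chr1:119711684-119711983, plus strand: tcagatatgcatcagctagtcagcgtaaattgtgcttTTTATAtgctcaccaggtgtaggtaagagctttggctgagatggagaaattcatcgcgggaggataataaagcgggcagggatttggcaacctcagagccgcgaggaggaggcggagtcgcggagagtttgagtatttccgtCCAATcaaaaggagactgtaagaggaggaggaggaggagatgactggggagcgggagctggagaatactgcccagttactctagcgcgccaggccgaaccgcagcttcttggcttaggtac
CREM, chr10:35195652-35195951, plus strand: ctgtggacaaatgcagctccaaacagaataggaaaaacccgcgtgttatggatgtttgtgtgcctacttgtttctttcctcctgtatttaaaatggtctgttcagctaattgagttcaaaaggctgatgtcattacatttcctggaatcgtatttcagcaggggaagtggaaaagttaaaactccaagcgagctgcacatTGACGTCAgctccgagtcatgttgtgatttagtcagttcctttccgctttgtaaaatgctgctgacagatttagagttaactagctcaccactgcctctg
PCBP4, chr3:51967405-51967704, minus strand: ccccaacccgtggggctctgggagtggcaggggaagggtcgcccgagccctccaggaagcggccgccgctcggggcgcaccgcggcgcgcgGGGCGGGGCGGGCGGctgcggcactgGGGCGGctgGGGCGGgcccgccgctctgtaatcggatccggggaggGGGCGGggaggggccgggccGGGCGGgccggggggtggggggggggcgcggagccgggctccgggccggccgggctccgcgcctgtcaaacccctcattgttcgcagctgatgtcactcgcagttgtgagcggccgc
GPR18, chr13:99258330-99258629, minus strand: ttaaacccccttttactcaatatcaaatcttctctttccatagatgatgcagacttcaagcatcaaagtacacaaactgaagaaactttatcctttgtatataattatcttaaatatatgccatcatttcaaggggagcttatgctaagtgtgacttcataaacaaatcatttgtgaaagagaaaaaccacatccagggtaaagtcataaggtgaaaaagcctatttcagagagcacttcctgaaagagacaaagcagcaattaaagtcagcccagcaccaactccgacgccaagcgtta
SLC2A5, chr1:9069586-9069885, minus strand: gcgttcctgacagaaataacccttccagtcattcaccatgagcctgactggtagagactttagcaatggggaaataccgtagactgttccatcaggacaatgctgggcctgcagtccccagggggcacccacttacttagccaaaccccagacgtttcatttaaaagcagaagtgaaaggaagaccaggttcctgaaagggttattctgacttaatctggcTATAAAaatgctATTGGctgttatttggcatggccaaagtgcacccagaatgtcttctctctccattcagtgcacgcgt
S100A4, chr1:153545757-153546056, minus strand: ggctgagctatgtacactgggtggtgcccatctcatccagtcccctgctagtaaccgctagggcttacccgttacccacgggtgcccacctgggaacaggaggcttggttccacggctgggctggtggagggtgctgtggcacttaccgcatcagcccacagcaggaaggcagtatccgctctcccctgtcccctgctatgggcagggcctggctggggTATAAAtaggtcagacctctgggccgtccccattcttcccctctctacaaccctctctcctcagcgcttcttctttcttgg

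These starts differed in kind. The PCBP4 start had 7 GC box matches and a GC content of 80.3%, and the TRIB3 start had 2 such matches and a GC content of 75.7%. The starts of SLC2A5 and S100A4 each held a TATA box match, at a GC content of 47.7% and 60.7%. This CREM start, 1 of 3 in its region, held a cAMP response element match at a GC content of 42.7%, and the GPR18 start held none of the 5 motifs at a GC content of 37.0%. A match is only a description of these letters.

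Over all 1243 RefSeq starts of hosts that lay inside an internal exonic region, the median GC content was 65.3% and the median ratio of observed to expected CpG was 0.781. This ratio was at least 0.6 in 72.5% of them. The other starts of the same genes split by whether H3K4me3 covered them. The 331 within promoter regions had a median GC content of 68.0%, and 79.2% of them reached the CpG ratio of 0.6. The 445 within no region had a median GC content of 51.0%, and 16.2% reached it. Over all 34943 starts in the table the share was 48.7%, and over all 12825 starts in promoter regions it was 88.7%. In base composition the starts inside internal exonic regions thus stood nearer to the promoter starts of the same genes than to the uncovered ones. Their share at the CpG ratio of 0.6 was below that of all promoter starts.

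Motif shares are given in the order of starts inside internal exonic regions, promoter starts of the same genes, uncovered starts of the same genes and all starts. The GC box occurred in 66.2%, 71.3%, 25.8% and 44.9%, the TATA box in 6.52%, 6.95%, 13% and 11.6%, and the cAMP response element in 3.22%, 3.63%, 0.899% and 1.84%. For these 3 motifs the inner starts lay nearer to the promoter starts than to the uncovered ones. For the other 2 motifs the promoter and uncovered starts had close shares and the inner starts another: the NF-Y motif occurred in 33.8%, 27.2%, 27.4% and 34.6%, and the rare amino acid response element in 0.241%, 1.51%, 1.57% and 0.870%. Starts of 1 gene often overlap, so these shares are descriptions without a test.

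Most hosts were protein-coding. The 1947 regions had 1770 primary host genes, 1616 of which held 1 region, 134 held 2, 17 held 3 and 3 (MACF1, SEPT9 and LTBP4) held 4. A protein-coding gene hosted 1784 regions (91.6%) and a lncRNA gene 163. An inner exon block lay under 1692 regions (86.9%) and the last block under 231, and in 561 (28.8%) the first block covered was block 2. An exon block is a merged stretch of overlapping exons, counted from the gene's 5′ end. The median distance to the host's outer 5′ end was 17463 bp (quartiles 6292.5 and 53527 bp), and 1012 regions (52.0%) were more than 10 kb from the outer 5′ end of any such gene.

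**Figure D1:**
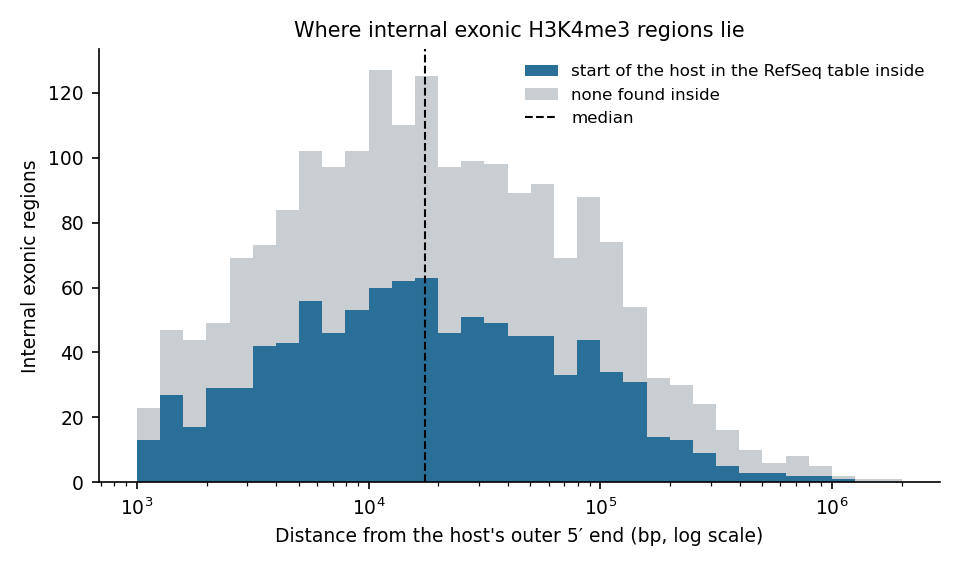
Number of internal exonic regions (vertical axis) by distance in bp from the outer 5′ end of the host gene (horizontal axis, log scale), with regions that hold a RefSeq start of the host in blue and those where none was found in grey. The dashed line is the median of 17463 bp, and regions with a start inside occur along the whole range.

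The name alternative promoter was checked against annotated starts. Matching was by gene. Of the 1874 regions on chromosomes in the RefSeq table, 970 (51.8%) held a RefSeq start of their own host, and 1549 had a host with an entry there. A start lies at the 5′ end of an exon and the members were chosen for covering an exon, so regions without exons give no comparison here. The share was 58.5% for regions over an inner block (951 of 1626) and 7.08% for those over the last block (16 of 226). An annotated inner start of the host was thus found in 51.8%, and in 62.6% of the 1549 whose host had an entry. Regions over last exons seldom held one. Of all members, 60 held the outer 5′ end of a gene of another type, such as a pseudogene or a small RNA.

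The host's own outer 5′ region was called in all 9 libraries for 962 regions (49.4%) and in none for 909 (46.7%). A RefSeq start lay inside at a like share in both sets, 50.6% and 53.8%. Distinct exon 5′ ends were also counted. Blocks covered by a member had at least 3 in 35.0% of 3286 cases, against 7.57% of 25101 other inner or last blocks of the same genes. Among 1746 first blocks not covered by a member the share was 24.7%. Every exon has a 5′ end, so such an end need not be a start of transcription. Members were chosen for covering exons and block length was not matched, so these shares are descriptions.

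Host RNA is given as CPM, the counts scaled to a common library total, per kb of exon. The median over all 1770 hosts was 3.36 in -Asn+Fe, 3.44 in -Asn and 3.44 in +Asn. Hosts whose outer 5′ region was called in all libraries had medians of 5.07, 5.55 and 6.07 CPM per kb in -Asn+Fe, -Asn and +Asn, and hosts with none had 1.95, 1.97 and 1.72. Host lncRNA genes were low, at 0.215, 0.244 and 0.138 CPM per kb.

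Total counts per RNA library ran from 29362707 to 42478518. The peak calls carry no read counts, so the ChIP depth is unknown. Regions called per library numbered 15891 to 17206 in -Asn+Fe, 15554 to 17448 in -Asn and 14741 to 15230 in +Asn. The 8 markers of B-cell precursors used here (among them PAX5, EBF1 and RAG1) were above 1 CPM in every medium, summing to 2011 to 2074 CPM in -Asn+Fe, 2225 to 2351 CPM in -Asn and 2531 to 2622 CPM in +Asn. The 4 T-cell and 4 erythroid markers were each below 0.1 CPM, and 4 myeloid markers summed to 14.2 to 15.3 CPM in -Asn+Fe, 17.1 to 18.3 CPM in -Asn and 11.6 to 12.1 CPM in +Asn. In bulk RNA, fewer cells of a kind and less RNA per cell cannot be told apart.

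Region width is the covered length, the number of bases under peaks called in a library within a region. In each library the median width over the internal exonic regions averaged 1493 ± 48.0 bp in -Asn+Fe, 1514 ± 88.6 bp in -Asn and 1393 ± 34.1 bp in +Asn (SD, n = 3 each). Promoter regions were wider, at 1881 ± 45.8, 1908 ± 78.0 and 1813 ± 26.4 bp, and intergenic regions narrower, at 997 ± 48.9, 1017 ± 100.1 and 830 ± 39.5 bp in the same media. The +Asn medians were the lowest of the 3 media in all of these classes, as were the numbers of regions called. The part of library depth or enrichment in this shift was not tested.

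**Figure D2:**
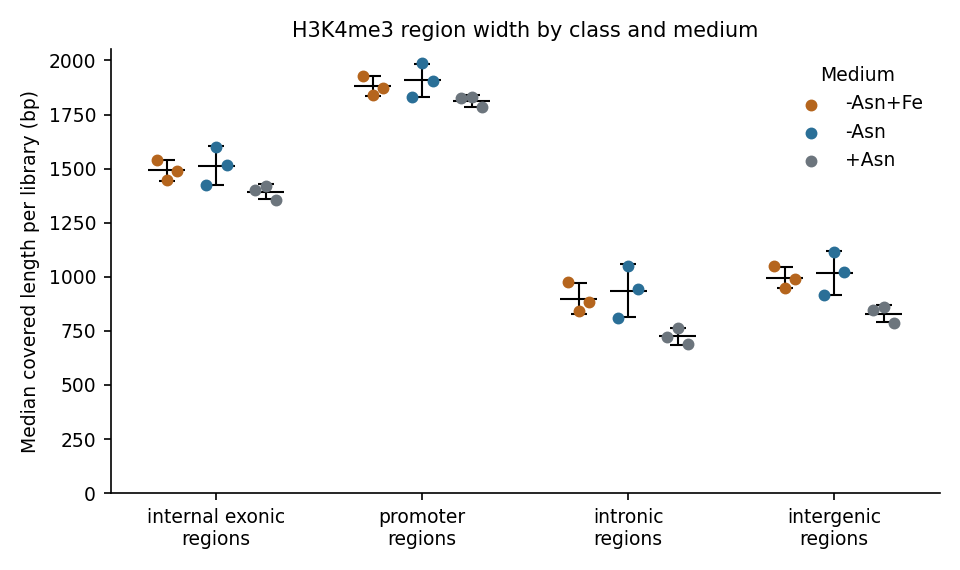
Median covered length in bp of 4 classes of H3K4me3 region in each library (points), with the mean and SD of the 3 libraries of a medium (lines), ordered -Asn+Fe, -Asn and +Asn. Internal exonic regions lie between promoter regions and the 2 other classes, and the +Asn mean lies lowest in each class.

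Of the 5 widest members, 2 (ARPP21 and RAG1) were called in -Asn vs +Asn, and NR3C1, CDKN2C and RUNX1 did not pass the test. Of all members 19.7% were called in either direction in that comparison, beside 14.6% wider and 1.45% narrower of all regions. The region in NR3C1, the glucocorticoid receptor, covered 16558, 15869 and 16671 bp in -Asn+Fe, 15921, 17419 and 16765 bp in -Asn and 16020, 15847 and 15704 bp in +Asn. RUNX1, a haematopoietic transcription factor with a known proximal inner promoter, had 12093, 11992 and 11537 bp in -Asn+Fe, 11454, 11871 and 11678 bp in -Asn and 11878, 11729 and 11402 bp in +Asn. The media overlapped in RUNX1, and neither region was called in any contrast (adjusted p of at least 0.351 for NR3C1 and 0.729 for RUNX1, limma). RUNX1 RNA was lower in -Asn than in +Asn at 575 ± 73.4 and 831 ± 31.6 CPM (log2 -0.53 with SE 0.0870, adjusted p = 5.34e-05, edgeR).

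Of the other 3 widest regions, CDKN2C, which encodes a cyclin-dependent kinase inhibitor, was not called either, at log2 0.09 for -Asn vs +Asn (adjusted p = 0.47). ARPP21, an RNA-binding phosphoprotein, had 10803, 11944 and 10702 bp in -Asn and 9140, 8914 and 8130 bp in +Asn, which do not overlap (log2 0.35 with SE 0.0572, adjusted p = 0.00344). Measured as the outer span from the first to the last peak, its change was log2 0.18 (adjusted p = 0.247). RAG1, a recombinase of immunoglobulin gene assembly, narrowed: 9688, 9991 and 8849 bp in -Asn against 11246, 11131 and 11220 bp in +Asn (log2 -0.24 with SE 0.0573, adjusted p = 0.0206). Its call was lost without -Asn library 3, +Asn library 1 or +Asn library 3 and in the outer span (log2 -0.02, adjusted p = 0.779). RAG1 RNA fell to 63.6 ± 13.4 CPM in -Asn, against 282 ± 6.77 CPM in +Asn, and RAG2 overlaps it on the other strand.

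The first comparison asks how these marks differed after 24 h without asparagine. Called means an adjusted p below 0.05 by limma over all 13883 regions. Of 1947 members, 347 (17.8%) were wider and 37 (1.90%) narrower in -Asn than in +Asn, where 14.6% of all regions were wider and 1.45% narrower. The median log2 change was 0.11 over the members and 0.09 over all regions. Widened members had a median log2 change of 0.46 (0.13 to 2.55), and 48 at least doubled in width. In 787 members (40.4%) the 3 -Asn and 3 +Asn widths did not overlap, beside 37% of all regions.

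Each of 3 libraries weighed heavily on that count. It was 171 without -Asn library 2, 185 without -Asn library 3 and 207 without +Asn library 3, and at most 412 with any 1 library left out. Counts over all regions in those runs are not given here. With each library centred on its own median width, 235 members were wider and 135 narrower. All 235 were among the 347, and the 37 narrower members were among the 135. Centred in the same way, 699 of 10135 promoter regions were wider and 855 narrower. Of 755 intronic regions 136 were wider and 23 narrower, and of 1046 intergenic regions 157 and 26.

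The share of wider members was also counted by annotation. Of the 970 that held a RefSeq start of the host, 138 (14.2%) were wider, and of the 904 where none was found, 195 (21.6%) were. Only 1549 of the 1874 regions had a host with an entry in the RefSeq table. The 904 therefore include regions where no start could be found. Over last blocks 58 of 231 (25.1%) were wider, over inner blocks 17.0%. Regions with a start inside had a median mean width of 1675 bp, against 1189 bp for those where none was found. Promoter regions were called wider in 12.9%, intronic regions in 21.7% and intergenic regions in 20.7%. Whether these shares differ was not tested.

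Most members of 1 group moved, the amino acid response. In it, ATF4 and the kinase EIF2AK4 (GCN2) switch on genes when an amino acid runs short. From a list of 40 genes of this response, which also holds the upstream kinase EIF2AK4 itself, 8 hosted 1 internal exonic region each. Of these 8, 7 were wider and 0 narrower in -Asn than in +Asn, with a median log2 change of 0.48, beside 14.6% and 0.09 over all regions. Host RNA was higher for 7 and lower for 1, beside 31% and 30.2% of 17939 genes. STC2, PSPH, PYCR1 and EIF2AK4, and below CREM, FOXP1, POU2AF1, ETS1, NFATC1, PROM1, SENP6 and EYA1, were singled out after their values were seen. Across the alternative settings and with any 1 library left out, 5 to 7 were called wider.

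SLC3A2, the heavy chain that carries several amino acid exchangers to the cell surface (ENSG00000168003.16, plus strand), had its region at chr11:62879898-62884314 (hg38), 23796 bp into the gene. It covered 4378, 3970 and 4327 bp in -Asn+Fe, 4087, 4074 and 4046 bp in -Asn, and 2338, 2471 and 2274 bp in +Asn. Every library without asparagine lay above every +Asn library. The log2 change was 0.79 (SE 0.0460, adjusted p = 7.28e-06) for -Asn vs +Asn and 0.84 (SE 0.0460, adjusted p = 5.42e-06) for -Asn+Fe vs +Asn. SLC3A2 RNA stood at 542.5, 615 and 588 CPM in -Asn+Fe, 517, 447 and 437 CPM in -Asn, and 111, 88.9 and 98.2 CPM in +Asn, a log2 change of 2.23 (SE 0.0935, adjusted p = 4.5e-12) in -Asn vs +Asn.

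TRIB3, a pseudokinase that restrains the response, had its region 17232 bp into the gene over exon block 3, with no outer 5′ region called in any library. It covered 2501, 2631 and 2438 bp in -Asn and 1571, 1714 and 1595 bp in +Asn (log2 0.63, SE 0.0634, adjusted p = 0.000191). TRIB3 RNA was 221, 220.0 and 201 CPM in -Asn and 5.54, 4.03 and 5.27 CPM in +Asn. STC2, a secreted glycoprotein, had 2411, 2752 and 2052 bp in -Asn and 1324, 1191 and 927 bp in +Asn (log2 1.07, SE 0.130, adjusted p = 0.000626), with RNA at 23.3 ± 0.377 and 1.32 ± 0.217 CPM. Measured as outer span, STC2 changed by log2 0.06 (adjusted p = 0.854). The outer span includes the gaps between peaks.

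The 2 serine synthesis enzymes on the list, PHGDH (the first step) and PSPH (the last), also widened. PSPH covered 2260, 2582 and 2156 bp in -Asn and 1460, 1522 and 1412 bp in +Asn (log2 0.67, SE 0.0686, adjusted p = 0.000235), and its RNA was 54.0 ± 2.21 and 19.4 ± 1.72 CPM. PHGDH covered 2691, 3133 and 3086 bp in -Asn and 2410, 2338 and 2501 bp in +Asn (log2 0.29, SE 0.0639, adjusted p = 0.0136). Its groups did not overlap, but the call was lost without -Asn library 2 or 3 (highest adjusted p = 0.0559).

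ATF3, a transcription factor of the stress response, had 3217, 3603 and 3255 bp in -Asn and 2656, 2729 and 2630 bp in +Asn (log2 0.33, SE 0.0524, adjusted p = 0.00324), and PYCR1, an enzyme of proline synthesis, changed by log2 0.21 (SE 0.0478, adjusted p = 0.0177). PYCR1 lost its call when libraries were centred and without -Asn library 3 or +Asn library 3 (highest adjusted p = 0.151), and it overlaps MYADML2 and AC145207.4. EIF2AK4, the kinase that senses uncharged tRNA, did not pass the test in width: 671, 830 and 846 bp in -Asn and 732, 828 and 766 bp in +Asn (log2 0.01, SE 0.119, adjusted p = 0.975). EIF2AK4 was also the host whose RNA fell, to 80.0 ± 1.0 CPM in -Asn, against 113 ± 3.91 CPM in +Asn. Only SLC3A2, TRIB3 and PHGDH of the 8 held a RefSeq start of the host, the starts printed above.

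**Figure D3:**
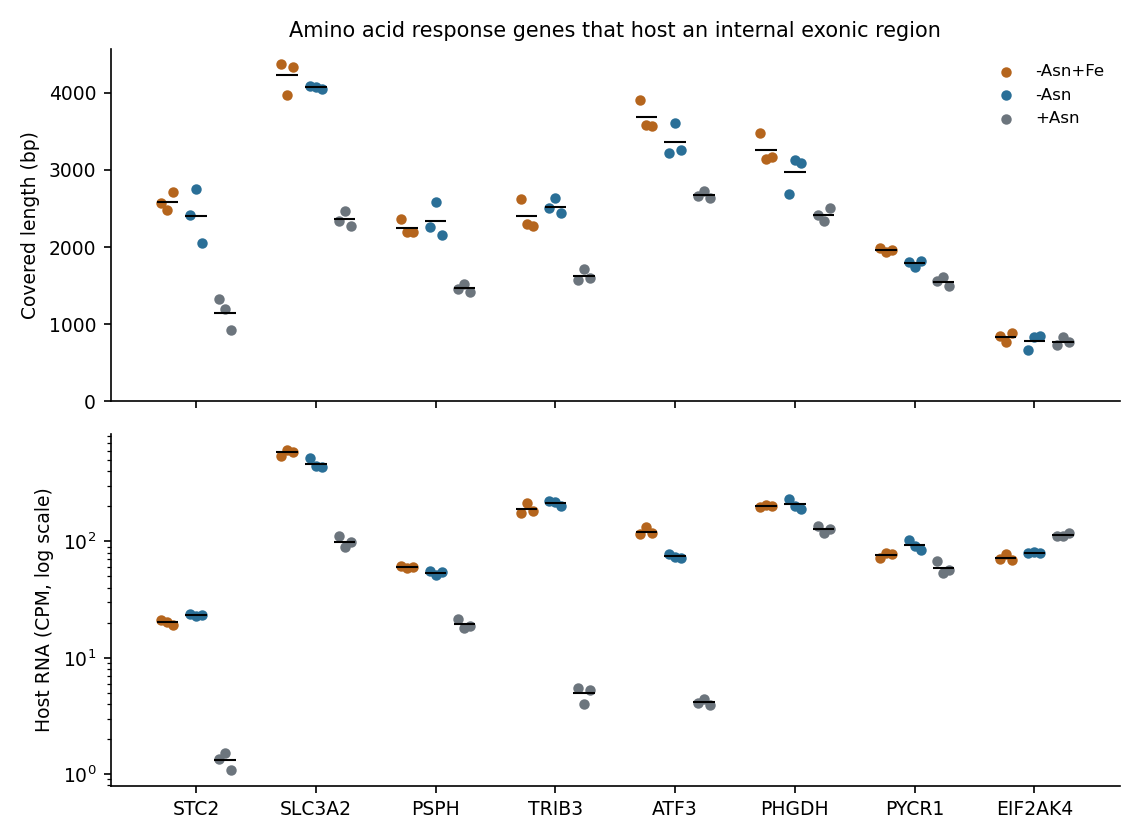
Covered length in bp of the internal exonic region (top) and host RNA in CPM on a log scale (bottom) for the 8 amino acid response genes, 1 point per library and a line at the mean of each medium, ordered -Asn+Fe, -Asn and +Asn. In 7 genes the +Asn points lie lowest in both panels, and EIF2AK4 is the exception.

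A second list holds 36 genes known for alternative promoters, chosen with earlier results of these data known, as were the other lists. Of these genes, 9 hosted 13 members in all, and 2 members were wider and 0 narrower in -Asn than in +Asn, beside 14.6% and 1.45% of all regions. The median log2 change was 0.07, beside 0.09 over all regions. CREM, the cAMP-responsive element modulator, is a known case: an inner promoter gives the repressor ICER. Its region at chr10:35194837-35197262 lies 68046 bp into the gene over exon block 14 of 19. It covered 1887, 1783 and 2125 bp in -Asn+Fe, 1880, 2421 and 2335 bp in -Asn, and 802, 991 and 871 bp in +Asn. No library without asparagine came near the +Asn libraries, and the log2 change in -Asn vs +Asn was 1.31 (SE 0.112, adjusted p = 6.43e-05).

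The outer 5′ region of CREM did not pass the test, with 2364, 2592 and 2407 bp in -Asn and 2178, 2279 and 2304 bp in +Asn (log2 0.12, SE 0.0639, adjusted p = 0.211). CREM RNA was 70.6, 70.8 and 67.1 CPM in -Asn+Fe, 102, 83.3 and 93.9 CPM in -Asn, and 12.4, 13.4 and 14.5 CPM in +Asn. The log2 change was 2.79 (SE 0.0887, adjusted p = 1.54e-13) in -Asn vs +Asn and -0.42 (SE 0.0801, adjusted p = 0.000859) in -Asn+Fe vs -Asn. Counts are per gene, so they do not say from which start the RNA came, and AL392046.1 overlaps CREM on the other strand.

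FOXP1, a transcription factor with inner promoters that give shorter proteins, hosted 3 members. The 1 that held a RefSeq start, 518012 bp into the gene, covered 2064, 2257 and 2044 bp in -Asn and 1361, 1466 and 1686 bp in +Asn, without overlap (log2 0.50, SE 0.0750, adjusted p = 0.00236). The others had log2 changes of 0.14 (adjusted p = 0.694) and 1.02 (adjusted p = 0.0680). FOXP1 RNA was 62.5 ± 1.08 CPM in -Asn and 63.3 ± 3.64 CPM in +Asn (adjusted p = 0.837). BCL6, a repressor of the germinal centre, had 5742 ± 367 bp in -Asn and 5652 ± 254 bp in +Asn (adjusted p = 0.837) while its RNA fell to 43.2 ± 2.60 CPM in -Asn, against 72.1 ± 1.6 CPM in +Asn.

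Among 40 transcription factors of the B lineage and blood, 13 hosted 17 members, of which 3 were wider and 0 narrower in -Asn than in +Asn, beside 14.6% and 1.45% of all regions. The 3 were POU2AF1, a B-cell coactivator (log2 0.32, adjusted p = 0.0204), ETS1 (log2 0.32, adjusted p = 0.0228) and NFATC1 (log2 0.23, adjusted p = 0.0229). Each of the 3 calls was lost without -Asn library 3, and with other settings or 1 library left out the count of wider members ran from 0 to 5. With libraries centred, 1 was wider and 2 were narrower. RNA of POU2AF1 and ETS1 went different ways: POU2AF1 was higher in -Asn at 150.3 ± 2.48 CPM, against 76.2 ± 2.99 CPM in +Asn, and ETS1 lower at 69.7 ± 8.68 CPM, against 108 ± 0.826 CPM.

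Of 45 histone methylation enzymes, 5 hosted 6 members. In -Asn vs +Asn 0 of the 6 were called, beside 14.6% wider and 1.45% narrower of all regions. JMJD1C, a JmjC-domain protein, was wider in -Asn+Fe than in +Asn, at 5648, 5344 and 5447 bp against 4418, 4679 and 5041 bp (log2 0.22, SE 0.0542, adjusted p = 0.0262). That call was lost when libraries were centred, without the variance trend, and without -Asn+Fe library 1 or 3 or +Asn library 1 or 2 (highest adjusted p = 0.0906). Of 34 iron genes, 9 hosted 10 members. In -Asn vs +Asn 2 of the 10 were wider and 0 narrower, beside 14.6% and 1.45% of all regions. The wider ones were in FBXL5, which targets iron regulatory protein IRP2, and SLC39A8, a metal importer (adjusted p = 0.0429 and 0.0263). Both calls were lost under 7 or more of the other settings. In -Asn+Fe vs -Asn 0 of the 10 were called, beside 0% of all regions. In -Asn+Fe vs +Asn 0 of the 10 were called, beside 11.7% wider and 1.92% narrower of all regions.

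Of 29 genes bound by KMT2A fusion proteins, 12 hosted 14 members. In -Asn vs +Asn 2 of the 14 were wider and 0 narrower, beside 14.6% and 1.45% of all regions. The wider ones were in SENP6, a SUMO protease, and EYA1 (adjusted p = 0.0286 and 0.0429). Both calls were lost without -Asn library 2 or 3 or without +Asn library 1 or 3, and with other settings the count of wider members ran from 0 to 4 and that of narrower members from 0 to 5. With libraries centred, 2 of the 14 were wider and 5 narrower. PROM1, which encodes the surface protein CD133, hosted 2 members. Its region at chr4:16032206-16038694 covered 3689, 3981 and 3400 bp in -Asn+Fe, 3761, 5578 and 5237 bp in -Asn and 5803, 5917 and 5711 bp in +Asn. It was narrower in -Asn+Fe than in +Asn (log2 -0.66, SE 0.121, adjusted p = 0.0072; outer span log2 -0.18, adjusted p = 0.0666), while PROM1 RNA was higher, at 893 ± 18.2 CPM in -Asn+Fe, against 649 ± 14.8 CPM in +Asn.

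The largest log2 increases in width were in regions that were short in +Asn, which a ranking by log2 change favours. In MACF1, a giant protein linking microtubules and actin, the region at chr1:39268044-39271430 covered 3371, 2751 and 3182 bp in -Asn+Fe, 3003, 3329 and 3106 bp in -Asn, and 919, 350 and 484 bp in +Asn (log2 2.55, SE 0.266, adjusted p = 0.000264, -Asn vs +Asn). MACF1 RNA was lower, at 630.5 ± 150.1 CPM in -Asn, against 932 ± 93.1 CPM in +Asn. The 3 other members in MACF1 were not called in -Asn vs +Asn.

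EIPR1 (endosomal transport), SNRNP70 (a U1 snRNP protein) and SNHG10 (a host of small RNAs) resembled MACF1, with log2 changes of 2.44, 2.10 and 2.10 for -Asn vs +Asn (adjusted p = 0.000278, 0.000156 and 3.22e-05). SNRNP70 covered 1698, 2014 and 2051 bp in -Asn and 488, 604 and 301 bp in +Asn, with RNA at 301 ± 16.9 and 332 ± 6.26 CPM (adjusted p = 0.0791). EIPR1 RNA was 59.2 ± 5.02 CPM in -Asn and 62.8 ± 5.94 CPM in +Asn (adjusted p = 0.38). SNHG10 RNA was higher in -Asn at 15.2 ± 1.97 CPM, against 6.87 ± 0.288 CPM in +Asn, and SNHG10 shares its place with GLRX5 and SCARNA13. ADORA2A, an adenosine receptor, widened by log2 2.25 (adjusted p = 0.000445), and its antisense gene overlaps it.

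In -Asn+Fe vs +Asn, LMAN2, IL4I1 and GPR18 joined MACF1 and EIPR1 among the 5 largest increases. GPR18, a G protein-coupled receptor, covered 3604, 2909 and 2978 bp in -Asn+Fe, 2891, 3238 and 2906 bp in -Asn, and 1174, 804 and 468 bp in +Asn. All 6 libraries without asparagine exceeded the 3 with it (log2 2.05, SE 0.254, adjusted p = 0.000768, -Asn+Fe vs +Asn). GPR18 RNA was 63.9 ± 4.58 CPM in -Asn+Fe, 69.8 ± 3.95 CPM in -Asn and 5.24 ± 0.404 CPM in +Asn. IL4I1, a secreted amino acid oxidase, covered 2030, 1937 and 1756 bp in -Asn+Fe and 592, 536 and 233 bp in +Asn (4.54-fold, SE 0.306 on the log2 scale, adjusted p = 0.00162). Its RNA was 27.5 ± 2.45 CPM in -Asn+Fe, 10.4 ± 0.690 CPM in -Asn and 0.948 ± 0.153 CPM in +Asn, but ATF5 and NUP62 overlap it and the strand setting of the counts is not given in the sources used here.

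Narrower regions were few. FBN2, a fibrillin of the extracellular matrix, covered 524, 1129 and 725 bp in -Asn and 1976, 1562 and 1759 bp in +Asn (log2 -1.22, SE 0.221, adjusted p = 0.00629), with RNA below 1 CPM throughout. SLC2A5, the fructose transporter, covered 473, 861 and 503 bp in -Asn and 1165, 1301 and 1363 bp in +Asn (log2 -1.11, SE 0.204, adjusted p = 0.00658), and its RNA was 10.9 ± 0.282 and 31.9 ± 2.35 CPM. HSH2D, an adaptor of blood cells, changed by log2 -0.87 (adjusted p = 0.012; outer span adjusted p = 0.127). The lncRNA genes AC087627.1 and AL356123.1 completed the 5 largest decreases, at log2 -1.23 and -0.75 (adjusted p = 0.0335 and 0.0153). The AC087627.1 call was lost without any 1 of 5 libraries (highest adjusted p = 0.0995).

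In -Asn+Fe vs +Asn, 261 members (13.4%) were wider and 40 (2.05%) narrower, beside 11.7% and 1.92% of all regions, and 752 (38.6%) did not overlap, beside 37.3%. Both comparisons use the same +Asn libraries. The wider count was 135 without -Asn+Fe library 1, 169 without -Asn+Fe library 3 and 166 without +Asn library 3. MAGI1, a junction scaffold, was narrower, at 1932, 955 and 1130 bp in -Asn+Fe and 3521, 3371 and 3143 bp in +Asn (log2 -1.39, SE 0.276, adjusted p = 0.0104), and covered 1290, 2194 and 2633 bp in -Asn. Its RNA was 42.4 ± 1.26 CPM in -Asn+Fe, 41.9 ± 5.35 CPM in -Asn and 142 ± 7.25 CPM in +Asn. S100A4, a calcium-binding protein, covered 1577, 1030 and 1257 bp in -Asn+Fe and 1842, 2073 and 1937 bp in +Asn (log2 -0.62, SE 0.124, adjusted p = 0.0108), and its RNA was 26.4 ± 4.99 and 203.5 ± 29.5 CPM.

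The direct comparison of -Asn+Fe with -Asn asks what iron with its carrier changed during starvation, and the effects of ferric nitrate and hinokitiol cannot be told apart. By limma 0 of 1947 members were called in either direction, as were 0% of all regions. At an unadjusted p under 0.05 there were 166 members (8.53%), beside 7.51% of all regions, and 242 (12.4%) did not overlap, beside 12.1%. The median log2 change was -0.02 over the members and -0.02 over all regions. A count of 0 at 3 libraries a group does not show that widths were alike.

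Host RNA did differ in that comparison. Of 1598 hosts tested by edgeR, 246 (15.4%) were higher and 332 (20.8%) lower in -Asn+Fe than in -Asn, beside 14% and 16.8% of 17939 genes. MAP1A, a microtubule-associated protein, rose to 173 ± 10.6 CPM in -Asn+Fe, against 51.8 ± 7.12 CPM in -Asn (log2 1.74, SE 0.0919, adjusted p = 1.1e-09), while its region covered 1780, 1703 and 1795 bp in -Asn+Fe and 1659, 1594 and 1853 bp in -Asn (adjusted p = 0.906). NR4A2, an orphan nuclear receptor, fell to 8.12 ± 0.505 CPM in -Asn+Fe, against 26.5 ± 2.60 CPM in -Asn (log2 -1.70, SE 0.109, adjusted p = 7.9e-09). Its widths were 3733, 3531 and 3603 bp in -Asn+Fe and 3558, 3834 and 3872 bp in -Asn, which overlap (adjusted p = 0.816).

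With no region called in this comparison, hosts named for their RNA could show no called width. TBXAS1, the thromboxane synthase, was higher in -Asn+Fe than in -Asn by log2 1.62 in RNA, and PHF19, a partner of Polycomb repressive complex PRC2, and ESCO2, a cohesin acetyltransferase, were lower by log2 -1.37 and -1.41. Their width changes were log2 0.32, -0.12 and -0.04 (adjusted p = 0.85, 0.648 and 0.936).

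Where the host also had its outer 5′ region called in all 9 libraries, the 2 marks of 1 gene were set against each other. The log2 ratio of internal to outer 5′ width was tested by limma over 1397 internal regions, exonic and intronic, of which 962 were internal exonic. In -Asn vs +Asn the ratio was higher for 102 members (10.6%) and lower for 62 (6.44%), beside 11.6% and 4.94% of all pairs, and the medians were 0.03 and 0.06. A library shift cancels in this ratio only where it has the same log2 size in both regions. The median log2 change in -Asn vs +Asn differed by class, at 0.07 for promoter regions and 0.24 for intronic regions. Part of such a shift may therefore remain in the ratio. For -Asn+Fe vs +Asn it was higher for 98 (10.2%) and lower for 54 (5.61%), beside 11% and 4.58%. For -Asn+Fe vs -Asn 0 were called (0% of all pairs), with 88 (9.15%) at an unadjusted p under 0.05, beside 9.66%.

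The count of higher ratios in -Asn vs +Asn fell to 43 without -Asn library 2 or without -Asn library 3, and to 58 without +Asn library 3. The calls of the 2 marks were also counted by pair. In -Asn vs +Asn both were wider in 28 of 962 pairs, the internal region alone in 137 and the outer 5′ region alone in 110. In 651 pairs neither was called. Intronic pairs are not in these counts, so joint or opposite calls cannot be called particular to internal exonic regions. Of the 962 internal regions 17.5% were called wider, beside 14.6% of all regions. Each mark was called in a minority of pairs, so joint or opposite calls would be few even for unrelated marks. Whether the 2 marks moved together was not tested.

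Opposite calls within 1 gene occurred in 5 pairs in -Asn vs +Asn, named here after their values were seen, and in 6 pairs in -Asn+Fe vs +Asn. SLC3A2, DRAXIN and DGKD were in both sets, MTCL1 and LRRC8D in the first alone, and PSPH, AFDN and AMPD3 in the second alone. The internal call of AFDN in the second set was lost under 6 of the other settings (highest adjusted p = 0.108, limma). In -Asn vs +Asn, in SLC3A2, DRAXIN and MTCL1 the internal region was wider and the outer 5′ region narrower. The SLC3A2 outer 5′ region covered 3793, 3658 and 3785 bp in -Asn+Fe, 3536, 3683 and 3478 bp in -Asn, and 4392, 4762 and 4288 bp in +Asn (log2 -0.33, SE 0.0445, adjusted p = 0.00126, -Asn vs +Asn). The 2 regions of SLC3A2 thus exchanged rank between media: the internal one was the wider in all 6 libraries without asparagine, and the outer one in all 3 +Asn libraries. The log2 change of the ratio was 1.11 (SE 0.0586, adjusted p = 1.45e-05).

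DRAXIN, a secreted axon guidance protein, had internal widths of 1008, 1044 and 1067 bp in -Asn and 568, 589 and 613 bp in +Asn over its last exon block. The outer 5′ widths were 1680, 1950 and 1828 bp in -Asn and 2372, 2368 and 2352 bp in +Asn. The ratio rose by log2 1.20 (SE 0.0917, adjusted p = 0.000173) while DRAXIN RNA fell to 2.14 ± 0.181 CPM in -Asn, against 18.7 ± 1.03 CPM in +Asn (log2 -3.13, adjusted p = 1.29e-12). In DRAXIN the RNA and the outer 5′ region were lower and the internal region was wider. MTCL1, which crosslinks microtubules, had a ratio change of log2 1.57 (adjusted p = 0.00739), with RNA at 40.8 ± 3.78 CPM in -Asn, against 104.7 ± 5.09 CPM in +Asn. Its internal call was lost without -Asn library 2 (adjusted p = 0.0504).

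LRRC8D and DGKD went the other way. LRRC8D, a subunit of volume-regulated anion channels, had internal widths of 1127, 1294 and 1345 bp in -Asn and 1499, 1485 and 1573 bp in +Asn, and outer 5′ widths of 3647, 3975 and 3849 bp against 2427, 2316 and 2432 bp. The ratio change was log2 -0.96 (SE 0.0980, adjusted p = 0.000594), but the internal region alone lost its call with any of 5 single libraries left out (highest adjusted p = 0.115). DGKD, a diacylglycerol kinase, had internal widths of 727, 1076 and 1018 bp in -Asn+Fe, 1094, 1291 and 1340 bp in -Asn, and 1968, 2206 and 2022 bp in +Asn. Its outer 5′ widths were 6741, 6726 and 6783 bp in -Asn+Fe, 6819, 7164 and 6819 bp in -Asn, and 5753, 5755 and 5887 bp in +Asn. RNA of both genes was higher without asparagine: LRRC8D at 70.9 ± 5.48 CPM in -Asn, against 46.0 ± 1.65 CPM in +Asn, and DGKD at 610.3 ± 52.5 and 371 ± 5.91 CPM.

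In LMO2 and HIC1 the outer 5′ region was called wider and the internal region was not called. The lowest ratio change in -Asn vs +Asn was that of LMO2, a transcription factor partner of blood stem cells, at log2 -1.49 (SE 0.140, adjusted p = 0.000476). Its internal region was at 2664, 2814 and 2805 bp in -Asn and 2873, 2670 and 2763 bp in +Asn, while the outer 5′ region covered 1660, 1917 and 1510 bp in -Asn and 624, 502 and 693 bp in +Asn. LMO2 RNA was 81.9 ± 4.92 CPM in -Asn and 33.0 ± 2.56 CPM in +Asn. HIC1, a transcriptional repressor, had a ratio change of log2 -1.28 (adjusted p = 0.000476). AMPD3, an AMP deaminase, had a ratio change of log2 -1.24 (adjusted p = 0.00168). Its internal region covered 722, 794 and 709 bp in -Asn+Fe, 769, 866 and 730 bp in -Asn, and 1012, 890 and 941 bp in +Asn, and its outer 5′ region was wider in -Asn by log2 0.97 (adjusted p = 0.00337). The internal widths in -Asn and +Asn did not overlap but did not pass the test (log2 -0.27, adjusted p = 0.107). In -Asn+Fe vs +Asn they passed it narrowly (log2 -0.35, adjusted p = 0.0495). That call was lost under 10 of the other settings, among them the outer span and the replicate block (highest adjusted p = 0.147). PCBP4, an RNA-binding protein, was the reverse of LMO2: internal widths were 1610, 1758 and 1670 bp in -Asn and 966, 877 and 875 bp in +Asn, outer 5′ widths 2096, 2235 and 2170 bp and 2553, 2146 and 2235 bp. Its RNA was 24.7 ± 0.692 CPM in -Asn and 1.18 ± 0.368 CPM in +Asn, with ABHD14B and GPR62 overlapping.

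**Figure D4:**
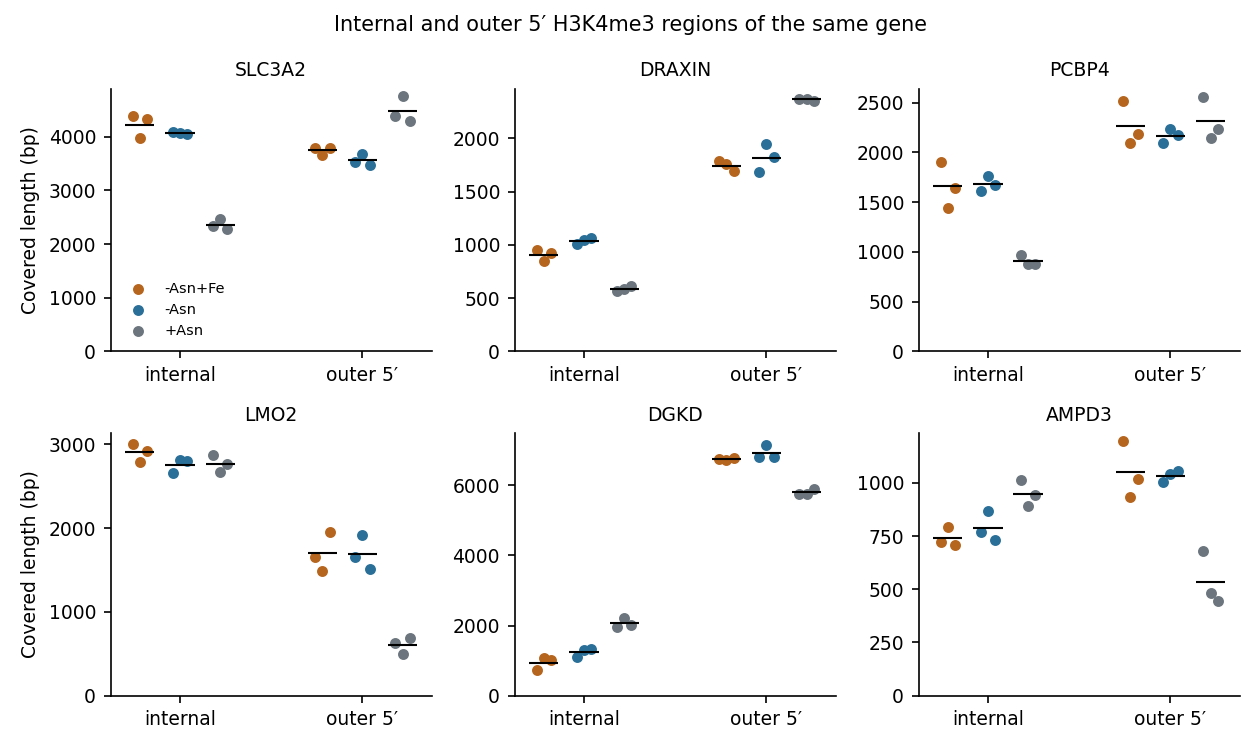
Covered length in bp of the internal exonic region and of the outer 5′ region of the same gene in each library (points), with the mean of 3 libraries (lines), ordered -Asn+Fe, -Asn and +Asn. In SLC3A2 and DRAXIN the 2 regions moved in opposite directions, in PCBP4 the internal region was called wider, and in LMO2 the outer 5′ region was.

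In the RNA of hosts, 534 of 1598 (33.4%) were higher and 622 (38.9%) lower in -Asn than in +Asn, beside 31% and 30.2% of 17939 genes. The median log2 change was -0.06 over the hosts and 0.04 over all genes. With library totals in place of TMM factors, which moves the median of all genes by 0.21, 699 were higher and 441 lower. In -Asn+Fe vs +Asn 514 (32.2%) were higher and 649 (40.6%) lower, beside 32.9% and 31.9%. With library totals these were 721 and 445. That scaling shifts all genes alike: with it, 40.9% of all genes were higher and 21.4% lower in -Asn vs +Asn. For -Asn+Fe vs +Asn the shares of all genes were 45.0% and 22.2%.

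The hosts with the largest increases in RNA in -Asn vs +Asn were TOX2, TRIB3, DPYSL3, MICAL2 and PCBP4. TOX2, an HMG-box protein, had 16 ± 1.07 CPM in -Asn and 0.335 ± 0.0989 CPM in +Asn, and its region, over the last exon block, covered 2249, 2480 and 2373 bp in -Asn and 1326, 1428 and 1050 bp in +Asn (log2 0.91, adjusted p = 0.000299). All 5 of these hosts had a wider region, beside 17.8% of members and 14.6% of all regions. DPYSL3, a cytoskeletal regulator, changed least, at log2 0.31 (adjusted p = 0.0207, lost without -Asn library 2 or without +Asn library 2 or 3).

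Among the largest decreases the widths varied. UHRF1, needed to maintain DNA methylation, fell to 121.5 ± 5.17 CPM in -Asn, against 950.0 ± 16.4 CPM in +Asn (log2 -2.97, adjusted p = 5e-15), while its region covered 3148, 3315 and 3006 bp in -Asn and 3528, 3232 and 3376 bp in +Asn (log2 -0.10, adjusted p = 0.165). SLC29A1, a nucleoside transporter, had log2 -2.50 in RNA and -0.05 in width (adjusted p = 0.803). FRMD4A, a scaffold of cell polarity, had log2 -2.52 in RNA and -0.52 in width (adjusted p = 0.0152).

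Width and host RNA were then set side by side over all members. Of 319 wider members with a tested host in -Asn vs +Asn, the host RNA was higher in 178 (55.8%) and lower in 73 (22.9%). Of 35 narrower members it was higher in 4 and lower in 27 (77.1%), and of 1415 members not called it was higher in 403 (28.5%) and lower in 588 (41.6%). The median log2 RNA changes were 0.39, -0.97 and -0.11. Set against +Asn, -Asn+Fe had a higher host for 138 of 240 wider members (57.5%) and lower for 30 of 39 narrower members (76.9%).

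Across 1769 members the width and RNA changes in -Asn vs +Asn had a Pearson r of 0.33 and a Spearman rho of 0.37. Where the outer 5′ region was called in all 9 libraries these were 0.22 and 0.29 (n = 923), and where it was called in none 0.46 and 0.48 (n = 781). For -Asn+Fe vs -Asn they were 0.09 and 0.12. These correlations are across regions, which share libraries and sometimes hosts and are not independent, and they are given as descriptions.

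**Figure D5:**
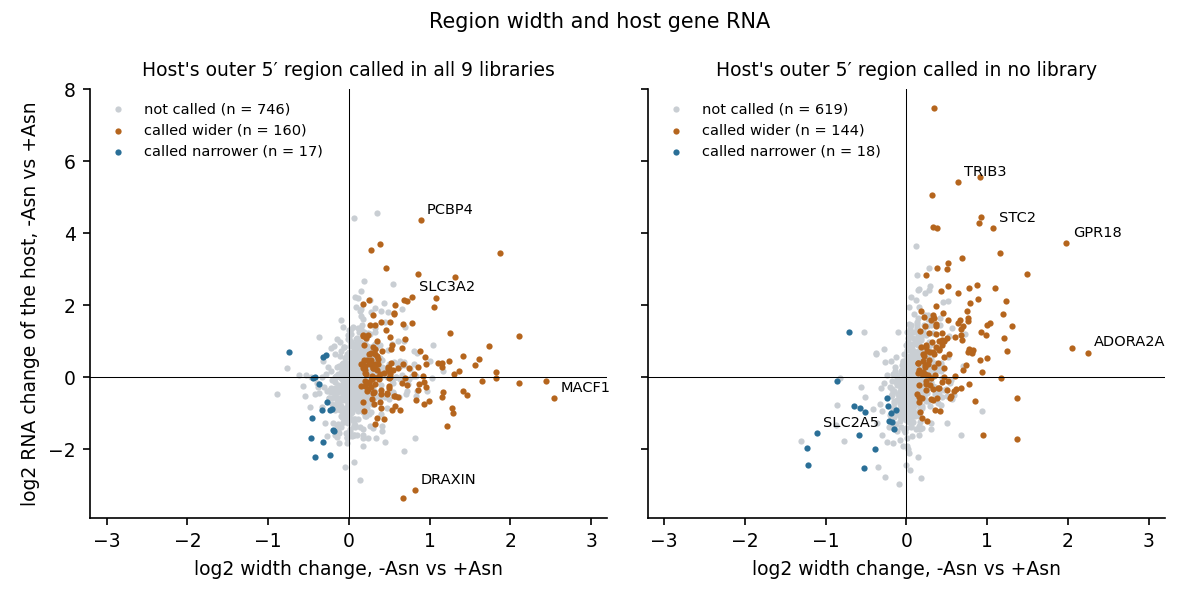
Log2 change of host RNA (vertical axis) against log2 change of region width (horizontal axis), -Asn vs +Asn, 1 point per internal exonic region with a tested host, coloured by the width call. Where no outer 5′ region was called (right) r was 0.46, and where one was called in all 9 libraries (left) r was 0.22, with the wider regions of DRAXIN and MACF1 below 0 in RNA.

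The distance limit of 1 kb set the border of the group. Just inside it, PHLDB1 (1006 bp), LINC00957 (1019 bp) and KLRK1 (1034 bp) had mean widths of 1128, 808 and 7647 bp in -Asn+Fe, 1365, 842 and 7696 bp in -Asn, and 960.3, 733 and 9669 bp in +Asn. Just outside it, C12orf29 (998 bp), CNPY1 (996 bp) and AC007950.2 (994 bp) had 1599, 676 and 742 bp in -Asn+Fe, 1526, 736 and 655 bp in -Asn, and 1633, 423 and 606 bp in +Asn. Under 2 kb from an outer 5′ end lay 164 members (8.42%).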

How the data were processed

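H3K4me3 was profiled by chromatin immunoprecipitation sequencing and RNA by RNA sequencing in the same 3 media, with 3 libraries each. The deposited peak table gives the authors' peak positions per library and no read counts. Bowtie2 2.4.4, Picard 2.18.26, MACS2 2.2.7.1, STAR 2.7.2a and Subread 1.6.5 and the build hg38 are named per the submitters' processing notes. The peak threshold, any use of the inputs and strandedness of counting were not given in the sources used here. One table, of peaks, has 12 header names over 13 fields, and the extra field repeats the region. RNA values are the authors' deposited raw counts per gene, used as such.

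Covered length per region was log2-transformed and tested with limma 3.58.1 (eBayes with trend) over 13883 regions, and the internal to outer 5′ width ratio likewise over 1397 pairs. Counts were tested with edgeR 4.0.16 (TMM, filterByExpr, robust quasi-likelihood) over 17939 genes. Calls use Benjamini-Hochberg adjusted p below 0.05, over the whole table each time, with all 9 libraries in 1 fit. The scripts were tested on simulated data. R 4.3.3, Python 3.11.15, pandas 2.3.3, numpy 2.4.6, scipy 1.17.1 and matplotlib 3.10.9 were used. Starts and their sequences come from the RefSeq table (GRCh38.p14), where 1549 of 1874 members had a host match.

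The members, the 6 gene lists and the tests were chosen with earlier results of these data known. Named are, per width contrast, up to 5 called members per direction with the largest change, a mean of at least 500 bp and groups that do not overlap. Further named are the 5 widest members, up to 3 per direction and ratio contrast, the 3 widest of each list, up to 5 hosts per direction and RNA contrast with at least 5 CPM, and 3 members on each side of the distance limit. Alternatives were centring, outer span, no variance trend, a replicate block, a minimum width of 500 bp, distance and exon minimums of 2 kb and 100 bp, DESeq2 1.42.0, other size factors, library totals, other count filters, and each library left out. The numbers of ChIP and RNA libraries limit precision, with RNA depths of 29362707 to 42478518 counts. One marker of the list for B-cell precursors and one host gene that the naming rule gave are not reported here.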

Additional observations from a re-analysis of the deposited data

How the results depend on the processing

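The count of narrower members depended most on the settings. For -Asn vs +Asn it was 135 with libraries centred on their median and 23 without the variance trend, beside 37, and in -Asn+Fe vs +Asn it was 128 centred, beside 40. Centring raised the count of narrower promoter regions too, to 855, beside 146, in -Asn vs +Asn. In -Asn+Fe vs +Asn that count rose to 857, beside 199. Leaving out 1 library at a time gave 171 to 412 wider and 16 to 49 narrower members in -Asn vs +Asn, 0 to 0 and 0 to 1 in -Asn+Fe vs -Asn, and 135 to 296 and 14 to 52 in -Asn+Fe vs +Asn. For the width ratio it gave 43 to 96 higher and 23 to 61 lower, 0 to 0 and 0 to 0, and 50 to 101 and 24 to 55, in the same order of contrasts. For host RNA it gave 470 to 538 higher and 584 to 643 lower, 181 to 264 and 229 to 326, and 469 to 562 and 597 to 680. Counts over all regions, pairs and genes in these leave-out runs are not given here, so the moves may not be particular to the members. The cause was not tested. Member numbers were 1783 at 2 kb, 1823 at 100 bp of exon and 1649 at 500 bp.

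With the replicate number as a block, 251 members were wider and 28 narrower without asparagine than in +Asn. The block gave 212 wider and 24 narrower for -Asn+Fe against +Asn. Correlations of same-numbered libraries ran from -0.21 to 0.09 for width, -0.24 to 0.06 for the ratio and -0.08 to 0.07 for RNA. Those of differently numbered libraries ran from -0.14 to 0.23 for width. The values are deviations from means of 3 libraries, so they cannot decide whether the numbers pair the samples. The block gave 76 and 43, and 79 and 39, for the ratio in these contrasts. For host RNA it gave 520 and 610, 228 and 305, and 509 and 641 in the 3 contrasts. Shares of all regions, pairs and genes with the block are not given here.

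Of 319 called values of named members, 224 stayed called under every alternative run, and 4 changed sign, all in RNA with library totals: SNRNP70 (log2 0.00828) and LMAN2 (0.0300) in -Asn+Fe vs +Asn, and PHF8 against +Asn (0.0475 in -Asn and 0.0661 in -Asn+Fe). ChIP depth is unknown, so no limit from depth can be given for widths.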
